A study of Mus musculus with 6 samples.

Results

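Mast cell transcripts were followed in the gastrocnemius, a calf muscle rich in fast-twitch fibres. The mice were of the NSG strain, which has no mature T, B or NK cells and still forms mast cells and neutrophils. The 8 genes are the tryptases Tpsb2 and Tpsab1, the chymases Cma1 and Mcpt4, the carboxypeptidase Cpa3, the receptor genes Kit and Ms4a2, and Hdc, the gene of the enzyme that makes histamine. They were picked by gene name, all 8 were found among the 55995 features of the table, and their levels in these libraries were known when they were picked, so their own differences between the groups are given as descriptions with no test. In the radiotherapy group, of 3 libraries, a subcutaneous tumour of wild-type MDA-MB-231, a human breast cancer line, on the left flank received 10 Gy of 6 MV X-rays (6 Gy per min) at about 800 mm3, and the muscle of the other side was taken 3 days later. In the control group, also of 3 libraries, the mice bore the same tumours without irradiation, and neither the tumour volume nor the day of collection is given. Whether each library stands for its own mouse is not stated, so a p-value here reflects sample-to-sample spread that could be technical. Levels are in TPM, a relative transcript abundance that the authors scaled for transcript length and library size, so levels of different genes can be compared within a library. The depth of the libraries is unknown.

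Mast cells are tissue-resident cells of the myeloid lineage that sit in connective tissue around vessels and nerves, in muscle mainly between the fibre bundles. They depend on stem cell factor, the ligand of the KIT receptor, and store tryptase, chymase, carboxypeptidase and histamine in granules bound to the proteoglycan serglycin. The IgE receptor, whose beta chain is the product of Ms4a2, triggers release of the granules. In mice the connective tissue type makes Tpsb2, Cma1, Mcpt4 and Cpa3, while the mucosal type makes Mcpt1 and Mcpt2.

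The sequences below are the bases upstream of the RefSeq start site of 3 proteases that were highest in the same pair of libraries and of Hdc, which was highest in another library. GATA factors, among them GATA2, are regulators of mast cell genes, and capitals mark each match to GATAA or to its reverse complement TTATC. The windows are 250 bases long, are read 5′ to 3′ on the gene's strand and come from RefSeq on GRCm38.p6. Mcpt4 lies at chr14:56062311-56062560, Cma1 at chr14:55944676-55944925, Cpa3 at chr3:20242182-20242431 and Hdc at chr2:126618679-126618928, all on the minus strand.
Mcpt4: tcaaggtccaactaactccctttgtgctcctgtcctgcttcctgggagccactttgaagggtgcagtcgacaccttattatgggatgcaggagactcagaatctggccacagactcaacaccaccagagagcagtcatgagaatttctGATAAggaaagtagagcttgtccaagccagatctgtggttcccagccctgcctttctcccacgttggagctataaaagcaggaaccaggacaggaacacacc
Cma1: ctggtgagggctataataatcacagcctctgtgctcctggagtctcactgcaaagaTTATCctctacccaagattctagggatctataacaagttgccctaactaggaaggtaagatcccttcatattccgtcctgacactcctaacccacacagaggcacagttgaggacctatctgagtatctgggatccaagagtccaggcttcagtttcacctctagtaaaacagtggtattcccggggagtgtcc
Cpa3: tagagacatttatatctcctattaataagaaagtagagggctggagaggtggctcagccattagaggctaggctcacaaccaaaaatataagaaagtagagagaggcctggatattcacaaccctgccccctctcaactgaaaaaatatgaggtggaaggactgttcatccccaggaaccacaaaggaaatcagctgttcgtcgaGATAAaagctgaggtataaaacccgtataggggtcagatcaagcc
Hdc: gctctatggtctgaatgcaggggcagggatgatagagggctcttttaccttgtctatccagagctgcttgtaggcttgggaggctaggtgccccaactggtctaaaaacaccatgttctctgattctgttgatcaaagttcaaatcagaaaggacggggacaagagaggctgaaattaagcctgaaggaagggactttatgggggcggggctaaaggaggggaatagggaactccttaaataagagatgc

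RefSeq windows were matched for 6 of the 8 genes, Cma1, Mcpt4, Cpa3, Kit, Ms4a2 and Hdc. GATAA or TTATC was found in 4 of the 6, and in 23.0% of the windows of 27025 genes. The match began 102 bases before the start site in Mcpt4, 194 in Cma1 and 45 in Cpa3, and Ms4a2 held 3 matches. Hdc and Kit held none. TATAAA or its reverse complement TTTATA was found in 2 of the 6 windows, Mcpt4 and Cpa3, and in 13.0% of all windows. CATGTG or CACATG, a form of the E-box that MITF binds, was found in 0 of the 6 and in 12.2% of all windows. No match of one of these motifs overlapped a match of another in the 6 windows. These matches describe letters in a window and show no binding.

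Radiotherapy replicate 3 stood apart from the other libraries. It had the highest level of all 6 libraries in 24.0% of the 26391 features that were above 0 in some library. That share is not given for the other libraries. Without replicate 3, limma called 3534 of the 11938 features tested. It called 7 with all 6 libraries and 1 to 13 without any other single library. Several results that change without radiotherapy replicate 3 are given with and without it, and other values are given with it only. Correlations across libraries were not computed without it. The muscle fibre markers Tnnt3 and Tnni2, troponin subunits of fast fibres, were at 24339 to 32124 and 21088 to 27951 TPM across the radiotherapy libraries and at 23132 to 30948 and 19045 to 28692 TPM across the control libraries. They had the highest means of the 10 fibre markers. Other fibre markers, among them Pvalb, differed more between libraries and are described below.

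The mast cell genes divided into proteases, which were higher in the radiotherapy muscles, and Kit and Hdc, which were above every control library in radiotherapy replicate 3 alone. Of the 8 genes, 3 had every radiotherapy library above every control library, Tpsb2, Mcpt4 and Cma1, and 0 had every radiotherapy library below. Among the 26391 features above 0 in some library, 1.82% were higher in this way and 11.2% lower. In radiotherapy replicates 1 and 2 all 5 proteases lay above every control library, beside 6.42% of the same features, while Kit and Hdc lay below every control library, beside 31.8%. Since the genes were picked with these levels known, the shares are given side by side and nothing is read from them. In bulk tissue, more mast cells and more protease RNA per mast cell cannot be told apart.

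**Figure D1:**
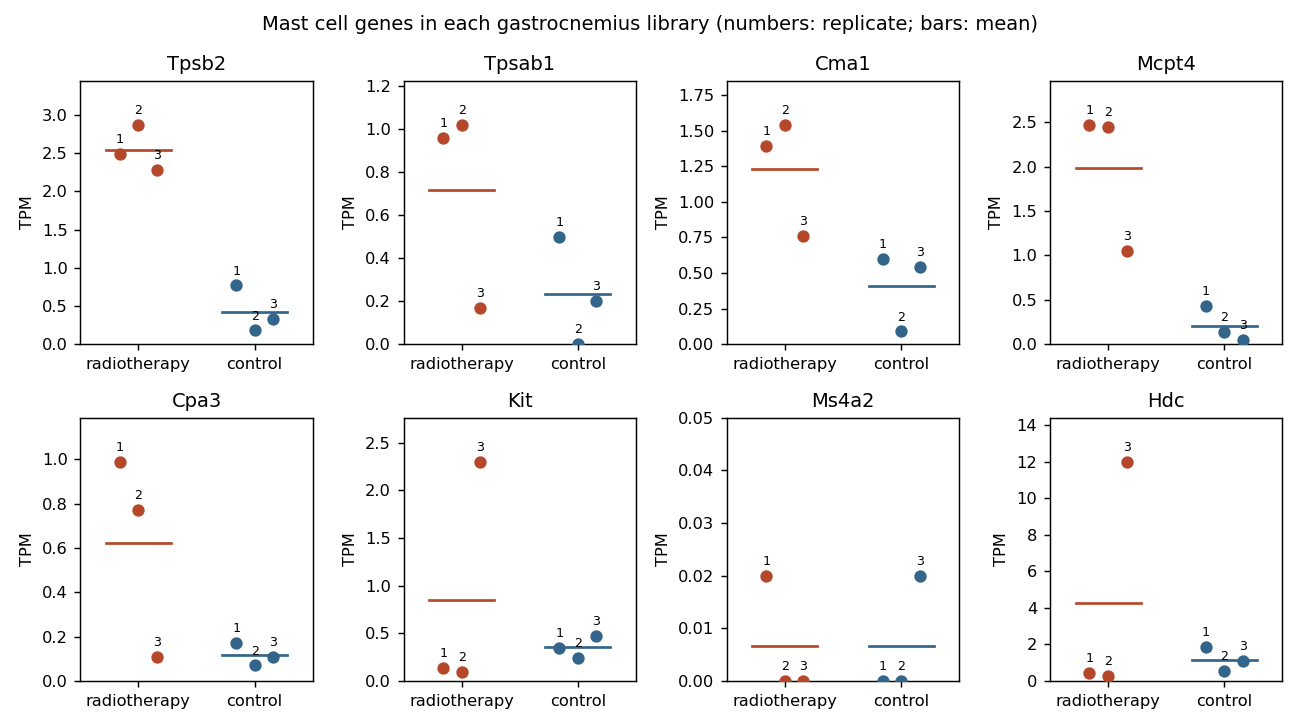
TPM of the 8 mast cell genes in each library, with the radiotherapy libraries at the left and the control libraries at the right of each panel. Points are libraries, numbered by replicate, and bars are group means (n = 3 each). Tpsb2, Cma1 and Mcpt4 show no overlap between the groups, while Kit and Hdc have a high point in radiotherapy replicate 3, at 2.3 and 12.0 TPM.

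Tpsb2, a tryptase and the most abundant of the 5 proteases in 5 of the 6 libraries, was at 2.49, 2.87 and 2.28 TPM across radiotherapy replicates 1, 2 and 3 and at 0.77, 0.18 and 0.33 TPM across control replicates 1, 2 and 3. Every radiotherapy library lay above every control library, and replicate 3 was close to the other radiotherapy libraries. The means were 2.55 ± 0.299 TPM in radiotherapy and 0.427 ± 0.307 TPM in control muscles (SD, n = 3 each), a ratio of 5.97, or of 6.28 without radiotherapy replicate 3. On the scale of log2(TPM + 1), which understates the change of low genes, the difference was 1.33.

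Tpsab1, the other tryptase gene of the set, was at 0.96, 1.02 and 0.17 TPM across radiotherapy replicates 1, 2 and 3 and at 0.5, 0 and 0.2 TPM across control replicates 1, 2 and 3. Replicates 1 and 2 lay above every control library, replicate 3 lay inside the control range, and the difference was 0.45 on the log2 scale. Tpsab1 and Tpsb2 are neighbouring genes on chromosome 17, with 0 genes annotated between them as protein-coding or as transcribed pseudogenes. Tpsab1 is annotated as a transcribed pseudogene in RefSeq's C57BL/6J assembly and as protein-coding in GENCODE M21, and NSG mice are of NOD background. Their longest GENCODE coding sequences were identical at 77.1% of 824 aligned bases, with a longest shared run of 39 bases, and 0% of the 50-base windows of Tpsb2 occurred in Tpsab1. The read length and the handling of shared reads are not given in the sources used here, so a part of each tryptase level may come from its neighbour. The sum of both tryptases, which depends less on how shared reads were split between them, was 3.45, 3.89 and 2.45 TPM across radiotherapy replicates 1, 2 and 3 against 1.27, 0.18 and 0.53 TPM across control replicates 1, 2 and 3. Tpsb2 made up 72.2, 73.8 and 93.1% of that sum in the radiotherapy libraries and 60.6, 100 and 62.3% in the control libraries.

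Mcpt4, a chymase of connective tissue mast cells, was at 2.47, 2.45 and 1.05 TPM across radiotherapy replicates 1, 2 and 3 and at 0.43, 0.14 and 0.05 TPM across control replicates 1, 2 and 3. All radiotherapy libraries lay above all control libraries, with replicate 3 at less of a distance than the others. The means were 1.99 ± 0.814 TPM in radiotherapy and 0.207 ± 0.199 TPM in control muscles (SD, n = 3 each), a ratio of 9.63, or of 11.9 without radiotherapy replicate 3, and the log2 difference was 1.28.

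Cma1, the other chymase, was at 1.39, 1.54 and 0.76 TPM across radiotherapy replicates 1, 2 and 3 and at 0.6, 0.09 and 0.54 TPM across control replicates 1, 2 and 3. The groups did not overlap, but radiotherapy replicate 3 lay nearer to control replicates 1 and 3 than to the other radiotherapy libraries. The means were 1.23 ± 0.414 TPM in radiotherapy and 0.410 ± 0.279 TPM in control muscles (SD, n = 3 each), a ratio of 3.00, or of 3.57 without radiotherapy replicate 3, and the log2 difference was 0.66. Cma1 and Mcpt4 lie in a protease cluster on chromosome 14 with 6 genes between them, and their coding sequences were identical at 71.3% of 718 aligned bases, with a longest shared run of 27 bases. The 4 protease genes of that interval on the mast cell list, Cma2, Mcpt1, Mcpt2 and Mcpt9, were listed at 0 TPM in all 6 libraries, so both genes that mark the mucosal type were listed at 0.

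Cpa3, the mast cell carboxypeptidase that trims peptides beside chymase in the granule, was at 0.99, 0.77 and 0.11 TPM across radiotherapy replicates 1, 2 and 3 and at 0.17, 0.07 and 0.11 TPM across control replicates 1, 2 and 3. Replicates 1 and 2 stood above all control libraries and replicate 3 equalled control replicate 3. The means were 0.623 ± 0.458 TPM in radiotherapy and 0.117 ± 0.0503 TPM in control muscles (SD, n = 3 each), a ratio of 5.34, or of 7.54 without radiotherapy replicate 3.

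Summed over the 5 proteases, the level was 8.30, 8.65 and 4.37 TPM across radiotherapy replicates 1, 2 and 3 and 2.47, 0.480 and 1.23 TPM across control replicates 1, 2 and 3. The sums did not overlap between the groups, and their means were 7.11 ± 2.38 and 1.39 ± 1.01 TPM in the radiotherapy and control muscles (SD, n = 3 each). Without Tpsb2 the sums were 5.81, 5.78 and 2.09 TPM across the radiotherapy libraries against 1.70, 0.300 and 0.9 TPM across the control libraries, again without overlap. Tpsb2 held 52.2% of the protease sum in radiotherapy replicate 3, and 30.0 and 33.2% in radiotherapy replicates 1 and 2 beside 26.8 to 37.5% in the control libraries.

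Kit, the receptor for stem cell factor, did not follow the proteases. It was at 0.14, 0.09 and 2.3 TPM across radiotherapy replicates 1, 2 and 3 and at 0.35, 0.24 and 0.47 TPM across control replicates 1, 2 and 3. Replicates 1 and 2 lay below every control library and replicate 3 above every control library. The group means of 0.843 ± 1.26 TPM in radiotherapy and 0.353 ± 0.115 TPM in control muscles (SD, n = 3 each) had a ratio of 2.39, which became 0.325 without radiotherapy replicate 3. Kit is also made by melanocytes and by early blood progenitors.

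Hdc, histidine decarboxylase, showed the same order of libraries as Kit within the radiotherapy group. It was at 0.45, 0.26 and 12.0 TPM across radiotherapy replicates 1, 2 and 3 and at 1.87, 0.55 and 1.09 TPM across control replicates 1, 2 and 3. Replicates 1 and 2 were below all control libraries and replicate 3 was above them. The means were 4.24 ± 6.72 TPM in radiotherapy and 1.17 ± 0.664 TPM in control muscles (SD, n = 3 each), a ratio of 3.62 that became 0.303 without radiotherapy replicate 3. The level of Hdc was 5.22 times that of Kit in radiotherapy replicate 3, and 2.29 to 5.34 times that of Kit in the other libraries. Hdc is also made by neutrophils and other myeloid cells.

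Ms4a2, the beta chain of the IgE receptor on mast cells and basophils, was at 0.02, 0 and 0 TPM across radiotherapy replicates 1, 2 and 3 and at 0, 0 and 0.02 TPM across control replicates 1, 2 and 3. It was listed at 0 in most libraries, and no ratio is given. Fcer1a, the IgE-binding alpha chain, was at 0, 0.07 and 0.3 TPM across the radiotherapy libraries and at 0.07, 0 and 0 TPM across the control libraries. Mrgprb2, the receptor through which peptides and drugs trigger connective tissue mast cells, was at 0 TPM across the radiotherapy libraries and at 0.02, 0 and 0 TPM across the control libraries. Fcer1a in radiotherapy replicate 3 was thus above Tpsab1 and Cpa3 in the same library, while Ms4a2 and Mrgprb2 did not exceed 0.02 TPM in any library.

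By mean level the order in the radiotherapy muscles was Hdc, Tpsb2, Mcpt4, Cma1, Kit, Tpsab1, Cpa3 and Ms4a2. In the control muscles it was Hdc, Tpsb2, Cma1, Kit, Tpsab1, Mcpt4, Cpa3 and Ms4a2. Neighbours in these orders overlapped in their library values, except Cpa3 and Ms4a2 in both groups. Mcpt4 exceeded Cma1 in the radiotherapy libraries by factors of 1.78, 1.59 and 1.38, while the factors were 0.717, 1.56 and 0.0926 in the control libraries, where both genes are low. All 8 genes are scarce in whole muscle, and 3 of them, Tpsb2, Mcpt4 and Hdc, averaged 1 TPM or more over all 6 libraries, the level set for the test across all features. A gene that reached this level through the group in which it is high had to differ, so those 3 do not stand for all 8.

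Over the 11938 features tested, the median log2 difference between radiotherapy and control was -0.36, and 78.5% of them had a difference below 0. The median over the 8 mast cell genes was 0.48, and that over the 5 proteases 0.66. With median-of-ratios scaling, which sets the typical gene of each library level, the median of all tested features became 0.01 and the differences of Tpsb2, Mcpt4 and Cma1 became 1.59, 1.52 and 0.90. Those of Cpa3, Tpsab1, Hdc and Kit were then 0.67, 0.66, 0.59 and 0.28. The direction of the 5 proteases was therefore the same with the deposited scaling and relative to the typical gene.

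**Figure D2:**
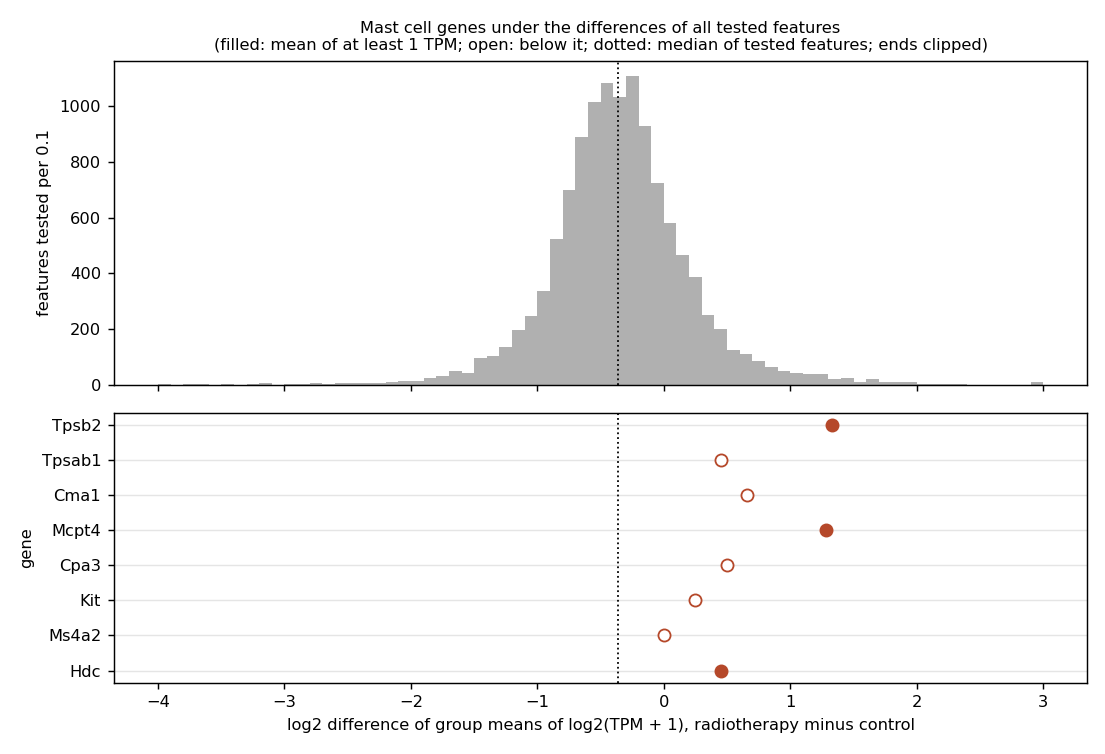
Log2 differences between radiotherapy and control on the horizontal axis, as a histogram of the 11938 tested features above and as 1 point for each of the 8 mast cell genes under it. Filled points have a mean of at least 1 TPM and open points lie below it, and the dotted line is the median of the tested features, -0.36. Tpsb2 at 1.33 and Mcpt4 at 1.28 are farthest to the right.

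Across the 6 libraries, the log2 levels of the 5 proteases followed each other, with Pearson correlations of 0.74 to 0.95 over their 10 pairs. Kit and Hdc followed each other with a correlation of 0.98. Between a protease and Kit or Hdc the correlations ran from -0.51 to 0.17 over 10 pairs. Kit and Hdc were at 2.3 and 12.0 TPM in radiotherapy replicate 3, above every other library. That library therefore weighs on the correlations of Kit and Hdc, which were not computed without it. The 6 libraries form the groups being compared and are scaled to the same total, so these values describe the libraries and carry no p-value.

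Markers of other cells were set beside these patterns. All 10 neutrophil markers had their highest level in radiotherapy replicate 3, beside 24.0% of the features above 0 in some library. That was also the library with the highest Hdc and Kit. In radiotherapy replicates 1 and 2, 7 of the 10 lay below every control library, beside 31.8%. Mpo and Elane, named after their values were seen, did not exceed 0.24 TPM in any library. By limma, 6 of the 10 were tested and 0 passed. Without radiotherapy replicate 3, 3 passed as lower, beside 27.6% of all tested features. The summed level of the 10 markers was 11.1, 18.6 and 2954 TPM across radiotherapy replicates 1, 2 and 3. It was 81.9, 73.8 and 184 TPM across control replicates 1, 2 and 3. S100a9, an abundant granulocyte protein, was at 7.15, 13.0 and 1574 TPM across the radiotherapy libraries and at 45.2, 41.4 and 111 TPM across the control libraries. The part of neutrophils in the levels of Hdc was not tested. The melanocyte markers, which bear on Kit, summed to 0.690, 0.320 and 0.0700 TPM across the radiotherapy libraries and to 0.460, 0.430 and 1.01 TPM across the control libraries, and were lowest in the library in which Kit was highest. The part of melanocytes in the levels of Kit was not tested.

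Most of the 8 tendon markers were high in radiotherapy replicates 1 and 2, where all 5 proteases were high. In those 2 libraries 6 of the 8 lay above every control library, beside 6.42% of the features above 0, and 0 of the 8 did so in all 3 radiotherapy libraries, beside 1.82%. Their sum was 56.7, 45.3 and 8.80 TPM across radiotherapy replicates 1, 2 and 3 and 19.2, 8.23 and 13.4 TPM across control replicates 1, 2 and 3. Replicate 3 thus lay within the control range for tendon markers and above every control library for the protease sum. Of the 10 fibroblast markers, 7 lay above every control library in radiotherapy replicates 1 and 2 and 4 in all 3, beside the same shares of 6.42% and 1.82%, although the summed level, carried by Dcn and Ly6a, was 253, 277 and 194 TPM across the radiotherapy libraries and 447, 289 and 326 TPM across the control libraries. The 9 Schwann cell markers, of the nerve around which mast cells also lie, summed to 152, 196 and 24.4 TPM across the radiotherapy libraries and to 142, 24.2 and 84.3 TPM across the control libraries. By limma, 3 of the 8 tendon and all 10 fibroblast markers were tested, and 0 of either passed the adjusted threshold. Without radiotherapy replicate 3, 2 tendon and 5 fibroblast markers passed as higher, beside 1.98% of all tested features. Muscle fibre markers shared this order of libraries in part. In radiotherapy replicates 1 and 2, 5 of 10 lay above every control library, beside 6.42% of the features above 0. All 10 were tested, and 3 passed as higher without replicate 3, beside 1.98% of all tested features. Pvalb, a calcium buffer of fast fibres named after its values were seen, was at 12653, 14462 and 2591 TPM across radiotherapy replicates 1, 2 and 3 and at 3232, 3451 and 4522 TPM across control replicates 1, 2 and 3. The part of tendon, connective tissue, nerve or fibre content in the sampled muscle in these protease levels was not tested.

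Markers of other granulocytes and of skin were mixed. The basophil proteases Mcpt8 and Prss34 were listed at 0 TPM in all 6 libraries, but the 6 basophil markers summed to 4.35, 5.66 and 11.3 TPM across the radiotherapy libraries and to 11.9, 4.06 and 4.55 TPM across the control libraries. That sum was carried by Il3ra, an interleukin receptor chain, and Cebpa, a transcription factor, which other cells also make. The eosinophil markers Epx, Ccr3 and Prg3 were likewise listed at 0, and the 7 eosinophil markers summed to 0.0600, 0 and 1.29 TPM across the radiotherapy libraries and to 0.330, 0 and 0.110 TPM across the control libraries. The 8 keratinocyte markers summed to 2.96, 2.60 and 1.91 TPM across the radiotherapy libraries and to 2.93, 2.68 and 2.84 TPM across the control libraries, mostly from Krt10, a keratin of the upper skin layers. Krt5 and Krt14, keratins of the basal skin layer, were at 0, 0 and 0.26 and at 0, 0 and 0.1 TPM across the radiotherapy libraries and at 0 TPM across the control libraries. The 12 macrophage markers, of a further myeloid cell of the muscle, summed to 74.2, 118 and 393 TPM across the radiotherapy libraries and to 232, 74.2 and 151 TPM across the control libraries. In radiotherapy replicate 3 the sum was carried by Lyz2 at 190 TPM and Cd68 at 121 TPM. In that library 3 of the 12 had their highest level, beside 24.0% of the features above 0 in some library. Of these 12 markers, 0 lay above and 0 lay below every control library in all 3 radiotherapy libraries. Among the features above 0 in some library, 1.82% lay above and 11.2% below in this way.

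**Figure D3:**
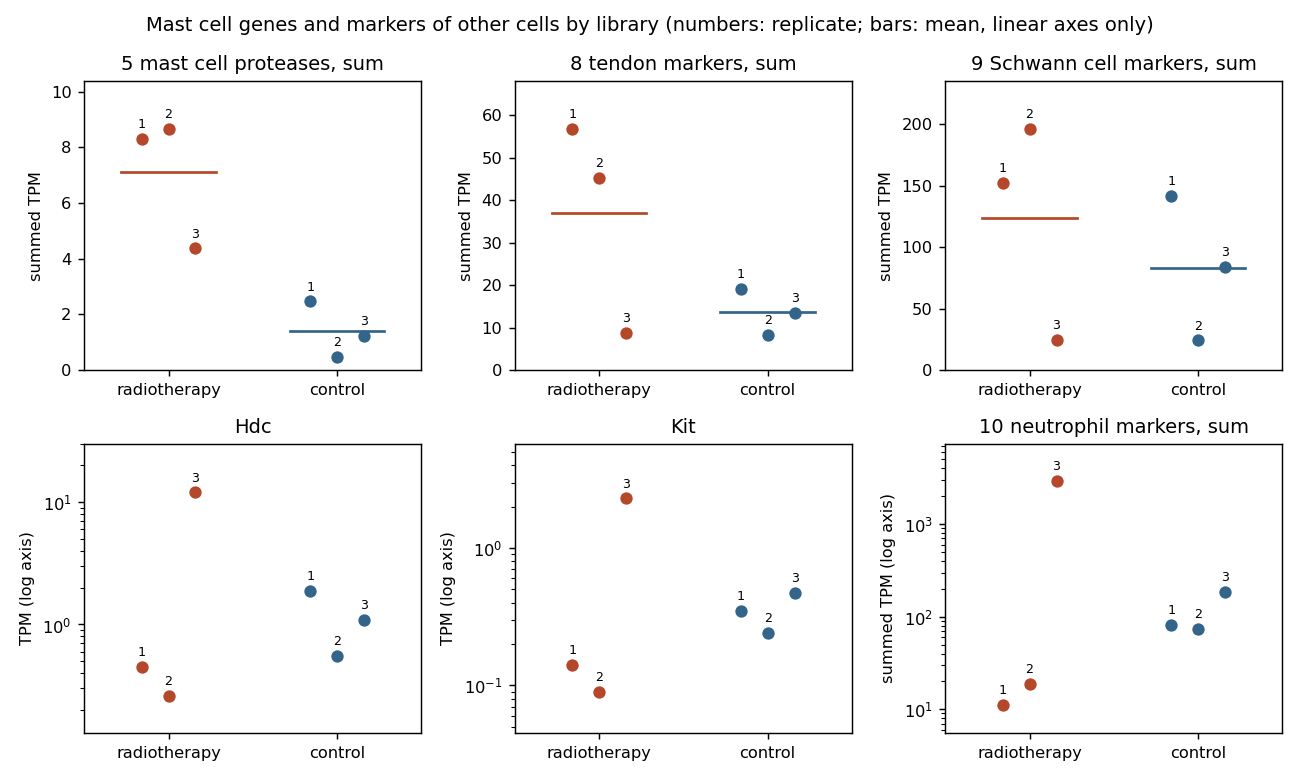
Summed TPM of the 5 mast cell proteases, of 8 tendon markers, of 9 Schwann cell markers and of 10 neutrophil markers, and TPM of Hdc and Kit, with the radiotherapy libraries at the left of the control libraries in each panel. Points are libraries numbered by replicate, bars in the upper row are means, and the lower row has log axes. Radiotherapy replicate 3 lies at 4.37 TPM for the proteases, above every control library, and is the highest library for Hdc, Kit and the neutrophil markers.

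The wider mast cell machinery was read from lists of 113 genes, of which 112 were found and 58 reached the level for testing. With limma and Benjamini-Hochberg adjustment over all 11938 features, 0 of the 58 passed an adjusted p of 0.05, beside 0.0419% of all tested features that passed as higher and 0.0168% as lower. At an unadjusted p under 0.05, 0 were higher and 4 lower, beside 1.18% and 13.3% of all tested features. The groups did not overlap for 2 of the 58 that were higher, Il33 and Cd9, and 5 that were lower in radiotherapy, beside 1.73% and 19.3% of the tested features. Without radiotherapy replicate 3, 0 of the 58 passed as higher and 14 as lower, beside backgrounds of 1.98% and 27.6%.

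Of the other 21 mast cell markers, 5 were listed at 0 TPM in all 6 libraries. In all 3 radiotherapy libraries 0 of the 21 lay above and 0 below every control library. Among the features above 0 in some library the shares were 1.82% and 11.2%. In radiotherapy replicates 1 and 2, 1 lay above and 1 below every control library, beside 6.42% and 31.8%. The 2 that reached the level for testing were both transcription factors. Gata2 was at 4.16, 1.65 and 2.13 TPM across radiotherapy replicates 1, 2 and 3 and at 6.35, 4.28 and 4.12 TPM across control replicates 1, 2 and 3, a log2 difference of -0.74 (SE 0.33, limma adjusted p = 0.355). Mitf was at 1.15, 1.01 and 4.78 TPM across the radiotherapy libraries and at 2.57, 2.01 and 2.61 TPM across the control libraries, with a difference of -0.21 (SE 0.44, limma adjusted p = 0.816) that became -0.70 without radiotherapy replicate 3 (limma adjusted p = 0.0477). Neither factor followed the proteases by library, and Gata2 is also made by endothelial cells.

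Among the 17 genes of KIT signalling, 3 were lower in all 3 radiotherapy libraries, beside 19.3% of the tested features, and 0 passed the test. Without radiotherapy replicate 3, 6 of the 17 passed as lower, beside 27.6%. Pik3r1, a regulatory subunit of PI3-kinase, was at 2.13, 1.8 and 3.51 TPM across the radiotherapy libraries and at 13.6, 9.89 and 11.6 TPM across the control libraries (log2 difference -1.89, SE 0.28, limma adjusted p = 0.183), and passed without radiotherapy replicate 3 at -2.09 (limma adjusted p = 0.0107). The STAT factors Stat5b and Stat5a averaged 19.5 ± 2.34 and 2.71 ± 1.89 TPM in radiotherapy and 30.4 ± 5.84 and 5.13 ± 1.62 TPM in control muscles (SD, n = 3 each), and of this pair Stat5a overlapped between the groups. Stat5a passed without radiotherapy replicate 3, at a log2 difference of -1.20 (limma adjusted p = 0.0470). Kitl, the ligand of KIT, named after its values were seen, was at 1.6, 1.38 and 2.93 TPM across the radiotherapy libraries and at 2.64, 1.72 and 2.66 TPM across the control libraries. These genes act in muscle fibres and other cells too, so their levels are not those of mast cells.

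Of the 18 genes of IgE receptor signalling, 11 were tested, with 0 past the test and a median log2 difference of -0.02. Without radiotherapy replicate 3, 1 of the 11 passed as lower, beside 27.6% of all tested features. Plcg1, a phospholipase, was at 3.48 ± 0.997 TPM in radiotherapy and 5.49 ± 2.37 TPM in control muscles, and Cblb, a ubiquitin ligase, was at 9.78 ± 6.12 TPM in radiotherapy and 5.66 ± 2.48 TPM in control muscles (SD, n = 3 each). The adaptors Sos1 and Grb2 were at 0.943 ± 0.271 and 15.0 ± 5.07 TPM in radiotherapy and at 1.47 ± 0.519 and 17.0 ± 3.34 TPM in control muscles (SD, n = 3 each). All 4 overlapped between the groups.

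The granule and secretion list, with 16 of 19 genes tested and 0 past the test, had a median log2 difference of -0.16. Lamp2 and Lamp1, membrane proteins of lysosomes and secretory granules, were at 9.48, 10.5 and 28.8 TPM and at 148, 138 and 313 TPM across radiotherapy replicates 1, 2 and 3. In control replicates 1, 2 and 3 they were at 43.7, 30.8 and 43.3 TPM and at 398, 335 and 280 TPM, so Lamp2 did not overlap and Lamp1 did. Without radiotherapy replicate 3 both passed as lower, at log2 differences of -1.86 and -1.22 (limma adjusted p = 0.0117 and 0.0156). Stxbp2, which prepares granule fusion, was at 4.47, 2.77 and 11.2 TPM across the radiotherapy libraries and at 4.6, 0.66 and 1.24 TPM across the control libraries. Snap23, a membrane fusion protein, was at 2.52, 2.98 and 13.3 TPM across the radiotherapy libraries and at 17.4, 8.55 and 11.2 TPM across the control libraries, and its log2 difference of -1.14 became -1.79 without radiotherapy replicate 3 (limma adjusted p = 0.390 and 0.0169).

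Among 8 genes of eicosanoid synthesis, 4 were tested and 0 passed. Ltc4s, the synthase of the cysteinyl leukotrienes that mast cells release, was at 3.79, 3.86 and 2.35 TPM across the radiotherapy libraries and at 5.75, 5.96 and 8.58 TPM across the control libraries (log2 difference -0.84, SE 0.28, limma adjusted p = 0.306). The groups did not overlap, and 19.3% of the tested features were lower in this way. The direction was opposite to that of the proteases and was that of 78.5% of the tested features. With median-of-ratios scaling the difference was -0.44 (limma adjusted p = 0.694). Alox5ap, the partner of 5-lipoxygenase, was at 2.53, 3.66 and 65.5 TPM across the radiotherapy libraries and at 12.5, 5.94 and 8.35 TPM across the control libraries, and like Hdc it was highest in radiotherapy replicate 3. Without that library its log2 difference was -1.24 (limma adjusted p = 0.0401), against 0.11 with it (limma adjusted p = 0.963). Ptgs1 and Ptges, of prostaglandin synthesis, were at 1.23 ± 0.716 and 2.67 ± 3.69 TPM in radiotherapy and at 0.997 ± 0.0862 and 1.36 ± 0.840 TPM in control muscles (SD, n = 3 each). A further list held 13 genes of receptors and enzymes linked to mast cell mediators. Its tested gene, the enzyme gene Ace, was at 10.6 ± 2.08 TPM in radiotherapy and 11.9 ± 2.79 TPM in control muscles (SD, n = 3 each).

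Of 16 cytokines that act on mast cells or come from them, 7 were tested and 0 passed. Il33, an alarmin of stromal cells that activates mast cells, was at 0.97, 1.37 and 1.94 TPM across the radiotherapy libraries and at 0.48, 0.6 and 0.93 TPM across the control libraries (log2 difference 0.53, SE 0.29, limma adjusted p = 0.416). The groups did not overlap, though radiotherapy replicate 1 lay close to control replicate 3. Its receptor gene Il1rl1, a marker of mast cells, was at 0.04, 0.02 and 0.1 TPM across the radiotherapy libraries and at 0.04, 0.01 and 0.02 TPM across the control libraries. Cxcl12, a chemokine, was at 18.8 ± 5.16 TPM in radiotherapy and 13.1 ± 2.40 TPM in control muscles, and Vegfa, a vascular growth factor, at 48.4 ± 12.5 TPM in radiotherapy and 105 ± 61.9 TPM in control muscles (SD, n = 3 each). Ccl2, a chemokine for monocytes, was at 0.34, 0.56 and 88.6 TPM across the radiotherapy libraries and at 89.8, 15.9 and 14.7 TPM across the control libraries, and its log2 difference of -2.34 became -4.32 without radiotherapy replicate 3 (limma adjusted p = 0.494 and 0.0191). Il3, Il9 and Il13, growth factors and products of mast cells, were listed at 0 TPM in all 6 libraries.

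The features whose levels were most like the mean of the 8 mast cell genes were ranked by Pearson correlation over the 6 libraries on the log2 scale. That mean, centred on the 6 libraries, was 0.24, 0.22 and 0.47 in radiotherapy replicates 1, 2 and 3 and -0.11, -0.51 and -0.31 in control replicates 1, 2 and 3. It joins the proteases with Kit and Hdc, which did not follow them. In radiotherapy replicate 3, where the mean was highest, Kit and Hdc were highest and each protease was at its lowest of the radiotherapy libraries. Likeness to the mean thus need not be likeness to the proteases, and the 8 genes were picked with their levels known. The mean reached a correlation of 0.9 with 63 of the tested features. The 10 highest with a gene name, leaving out predicted models, were Lgals1, Ccdc167, Emilin1, Rps6kc1, Lsp1, Olfml2b, Tafa5, P3h3, Nes and Telo2, with correlations of 0.990 to 0.948. Lgals1, which encodes galectin-1, was at 256, 281 and 321 TPM across the radiotherapy libraries and at 190, 145 and 172 TPM across the control libraries. Lsp1, an actin-binding protein of leukocytes and endothelium, was at 38.3, 35.0 and 37.0 TPM across the radiotherapy libraries and at 21.3, 12.5 and 14.8 TPM across the control libraries. Emilin1, an elastic matrix glycoprotein, was at 6.66, 5.04 and 8.58 TPM across the radiotherapy libraries and at 3.87, 2.38 and 3.47 TPM across the control libraries.

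**Figure D4:**
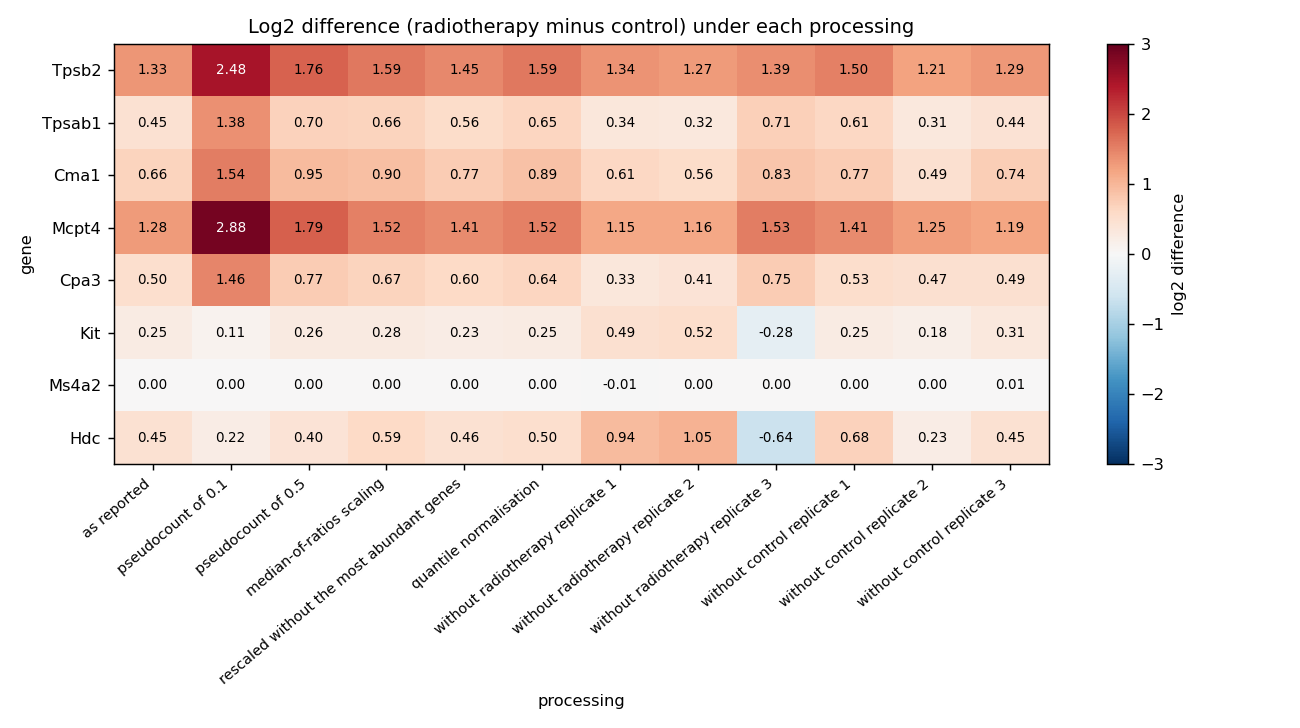
Log2 differences between radiotherapy and control for the 8 mast cell genes (rows) as reported and under each other processing or left-out library (columns). Red cells are higher and blue cells lower in radiotherapy. The 5 proteases are above 0 in every column, from 0.31 for Tpsab1 without control replicate 2 to 2.88 for Mcpt4 with a pseudocount of 0.1, while Kit and Hdc turn to -0.28 and -0.64 without radiotherapy replicate 3.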

How the data were processed

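RNA-seq of gastrocnemius muscle from tumour-bearing NSG mice was analysed, 3 radiotherapy and 3 control libraries, grouped by the labels. Total RNA went into TruSeq libraries, per the labels' protocols. Values in the deposited table are TPM, which the authors scaled for transcript length and to the same total in each library. Per the submitters' processing notes, the tools were HISAT2, StringTie and RSEM, of unstated version and role, and the build was mm9. GRCm38.p6 was used for RefSeq sequences and gene neighbours only. Depth is unknown, so no interval or detection limit is given.

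The 8 genes and the lists of other genes were chosen with earlier results of these data known. Values were log2(TPM + 1). The 11938 features averaging 1 TPM or more were compared two-sided with limma 3.58.1 (R 4.3.3, trended empirical Bayes, group as the only term), with Benjamini-Hochberg adjustment over all of them and a threshold of 0.05. The test was checked on simulated data. Named genes were the 8 members, in each mast cell list the genes past the threshold or else up to 4 with the smallest p, at most 2 markers of each other cell type, those with the highest mean, and the 10 features most like the members' mean. Other genes in the text, among them markers listed at 0, Krt5, Krt14, Fcer1a, Mrgprb2, Il1rl1, Kitl, Cd9 and Pvalb, were named after their values were seen. A gene that this rule selects is not reported here. Other settings tried were a pseudocount of 0.1 or 0.5, a minimum mean of 5 TPM or none, and scaling by median of ratios, by quantiles or after removal of mitochondrial genes and the 20 most abundant ones. Robust or untrended variance estimates, a replicate block and the omission of each library were tried too. Coding sequences were aligned with Biopython 1.88.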

Additional observations from a re-analysis of the deposited data

How the results depend on the processing

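The log2 differences of the 5 proteases were above 0 under every scaling, pseudocount and left-out library tried, from 1.21 to 2.48 for Tpsb2 and from 1.15 to 2.88 for Mcpt4. Those of Kit and Hdc turned to -0.28 and -0.64 without radiotherapy replicate 3, and that of Alox5ap to -1.24, since this library held their highest values; without single libraries they reached at most 0.52, 1.05 and 0.88. The median over the 8 genes, 0.48, became 1.42 and 0.73 with pseudocounts of 0.1 and 0.5 and 0.67 with median-of-ratios scaling, and ran from 0.39 to 0.73 without single libraries. The genes higher in all radiotherapy libraries numbered 3 with each scaling and 3 to 5 without single libraries, and those lower 0 to 2, the 5 and 2 without radiotherapy replicate 3. The 7 features called by limma became 4 under median-of-ratios and 4 under quantile scaling, 0 of 26391 with no filter on low values, and 1 to 3534 without single libraries, the highest without radiotherapy replicate 3. The other mast cell genes called were 0 to 14 without single libraries, the 14 without radiotherapy replicate 3, and 0 under the other alternatives.

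With the replicate number as a block, limma called 4 features in place of 7 and again 0 of the other mast cell genes. The deviations of same-numbered libraries from their group means had correlations of -0.05, -0.11 and -0.2. Deviations from the mean of so few libraries are tied to each other, so these values cannot decide whether the libraries are paired. The numbers are not taken as pairs because nothing in the labels says that they pair the libraries.

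Unknown depth limits all 8 genes, which are at low levels in whole muscle, and the spread rests on 3 libraries a group.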

Other observations

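Cd63, Rcan1, Srgn and Fcer1g, listed mast cell genes named after their values were seen, had their highest level in radiotherapy replicate 3, the library highest in Hdc and Kit. Cd63, a tetraspanin of granule and lysosome membranes, was at 145, 102 and 1733 TPM across radiotherapy replicates 1, 2 and 3 and at 467, 631 and 310 TPM across control replicates 1, 2 and 3. Its log2 difference of -0.60 became -1.88 without radiotherapy replicate 3 (limma adjusted p = 0.770 and 0.0190). Rcan1, a calcineurin inhibitor induced by calcium signals, was at 11.7, 9.48 and 389 TPM across the radiotherapy libraries and at 35.1, 17.9 and 35.4 TPM across the control libraries. Srgn, the granule proteoglycan serglycin, which other leukocytes and endothelial cells also make, was at 12.0, 14.1 and 78.7 TPM across the radiotherapy libraries and at 26.6, 18.9 and 14.5 TPM across the control libraries. Fcer1g, the gamma chain shared by several Fc receptors, was at 2.87, 4.31 and 39.3 TPM across the radiotherapy libraries and at 31.8, 5.58 and 6.45 TPM across the control libraries. Of the 112 listed genes found, 47 had their highest level in radiotherapy replicate 3, beside 24.0% of the features above 0 in some library.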
